A study of Mus musculus with 10 samples.

Results

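The nuclear-coded subunits of respiratory complexes II, III, IV and V, with cytochrome c, were followed in melanoma cells sorted from mouse primary skin tumours and lymph node metastases. The members were all gene names that begin with Uqcr or Atp5 or with Cox and a digit from 4 to 8, together with the 4 Sdh genes, Cyc1 and Cycs, with names marked as pseudogenes left out. This gave 50 genes of the 34162 gene names in the table: 4 of complex II, 9 of complex III, cytochrome c itself, 18 of complex IV and 18 of complex V. All mice carried the mixed strain background C57BL/6:SV129. Cells were sorted by a green fluorescent protein that the labels equate with c-Myc status, so that GFP+ cells are called c-Myc-high and GFP- cells c-Myc-low. The 4 groups were metastatic c-Myc-high (n = 3 libraries), metastatic c-Myc-low (n = 3), primary c-Myc-high (n = 2) and primary c-Myc-low (n = 2). The labels name neither the driver of the tumours nor the construct behind the fluorescent protein, and no treatment or age. Whether the libraries of a group stem from different mice is not said, and the p-values therefore cover the spread among these libraries, part of which may be technical.

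The respiratory chain of the inner mitochondrial membrane moves electrons from fuel to oxygen and stores the energy as a proton gradient, which ATP synthase, complex V, spends to make ATP. Complex II is succinate dehydrogenase of the citric acid cycle and is coded wholly in the nucleus, whereas complexes III, IV and V combine nuclear subunits with a core coded by mitochondrial DNA, whose genes were not analysed here. c-Myc is a transcription factor that binds E-box sequences, and in other cell systems it is known to raise nuclear genes for mitochondria. NRF1 and the ETS-family factor GABP are classical regulators of respiratory subunit genes.

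RNA was amplified before library preparation, and the deposited values were estimated counts per transcript, which were summed by gene name. Total estimated counts ran from 1603012 in primary c-Myc-high replicate 2 to 6844328 in primary c-Myc-low replicate 1, and metastatic c-Myc-high replicate 3 was the second shallowest with 2641865. Subunit transcripts took between 0.279% and 0.566% of the counts of a library. The melanocyte genes Dct, Pmel and Tyrp1 were detected in all 10 libraries, with the lowest value of Pmel at 28.6 CPM, counts scaled to library size. Other cell types were also present: summed keratinocyte markers lay between 34.1 and 467 CPM in the metastatic libraries and between 27521 and 100510 CPM in the primary ones, and summed salivary gland markers reached 221270 CPM in metastatic c-Myc-high replicate 1. Summed B cell markers lay between 163 and 4954 CPM in the metastatic libraries and between 2.09 and 13.4 CPM in the primary ones. In such bulk samples fewer cells of a type and less RNA per cell cannot be told apart, and the part of these cells in the subunit values was not tested. Markers of tissues rich in mitochondria were low and unequal between sites: 20 skeletal muscle markers summed to 78.6 to 285 CPM in metastatic libraries and 25.6 to 53.1 CPM in primary ones, with between 5 and 16 of them detected in a library. Within that list Ckm reached at most 0.726 CPM, and Acta1 lay between 8.06 and 20.7 CPM and overlapped between sites. In metastatic c-Myc-low replicate 2, where the list summed to 285 CPM, Acta1 stood at 9.69 CPM and Mylpf at 0.743 CPM. Ckm and Myh4 had no count there, so most of that sum fell on other markers of the list. A list of 8 brown fat markers summed to 35.1 to 624 CPM in metastatic libraries and 7.38 to 109 CPM in primary ones. Ucp1 had no count in any library, while the list includes Ppargc1a, which is taken up again among the regulators. In metastatic libraries Ppargc1a made up most of the sum, from 18.04 of 35.1 CPM to 622 of 624 CPM. It made up 1.27 of 109 and 5.45 of 79.0 CPM in primary c-Myc-low libraries, and 25.8 of 36.0 and 6.62 of 7.38 CPM in primary c-Myc-high ones. The site difference of this sum therefore cannot be read as one of the other markers.

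Complex II and the c subunit of complex V are shown first, because Sdhb was the one subunit gene whose c-Myc-high libraries all lay above the c-Myc-low ones at the scaling used here, though not with plain library totals, and because the 3 c subunit genes differed in direction. Of the 50 members, 36 matched a RefSeq promoter. The 250 bases before each start are given for build GRCm38.p6, 5′ to 3′ on the gene's own strand, in lower case. Capitals mark an E-box (CACGTG), an NRF1 motif (GCGCA and GCGC with any 1 base between them) or an ETS motif (CCGGAAG) on either strand.
Sdhb (chr4:140961021-140961270, plus strand): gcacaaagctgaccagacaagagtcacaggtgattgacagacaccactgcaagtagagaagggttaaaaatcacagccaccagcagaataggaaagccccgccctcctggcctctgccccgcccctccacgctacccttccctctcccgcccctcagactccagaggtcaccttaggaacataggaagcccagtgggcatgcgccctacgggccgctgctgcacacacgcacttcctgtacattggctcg
Sdha (chr13:74350241-74350490, minus strand): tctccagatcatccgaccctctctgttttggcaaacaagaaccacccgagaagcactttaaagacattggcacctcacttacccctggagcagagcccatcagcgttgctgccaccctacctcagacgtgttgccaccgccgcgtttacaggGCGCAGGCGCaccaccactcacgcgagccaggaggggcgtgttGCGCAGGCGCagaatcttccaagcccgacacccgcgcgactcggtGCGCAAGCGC
Sdhd (chr9:50603850-50604099, minus strand): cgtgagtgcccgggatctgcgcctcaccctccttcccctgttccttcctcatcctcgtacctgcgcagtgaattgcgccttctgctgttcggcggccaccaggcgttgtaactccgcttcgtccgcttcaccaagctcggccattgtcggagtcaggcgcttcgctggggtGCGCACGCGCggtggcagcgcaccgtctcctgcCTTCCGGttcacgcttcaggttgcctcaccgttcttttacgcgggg
Atp5g1 (chr11:96075632-96075881, minus strand): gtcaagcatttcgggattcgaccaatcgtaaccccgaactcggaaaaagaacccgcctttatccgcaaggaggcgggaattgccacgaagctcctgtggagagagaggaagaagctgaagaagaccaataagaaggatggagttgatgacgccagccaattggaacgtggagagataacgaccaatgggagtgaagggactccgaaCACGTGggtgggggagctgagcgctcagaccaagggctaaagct
Atp5g3 (chr2:73911327-73911576, minus strand): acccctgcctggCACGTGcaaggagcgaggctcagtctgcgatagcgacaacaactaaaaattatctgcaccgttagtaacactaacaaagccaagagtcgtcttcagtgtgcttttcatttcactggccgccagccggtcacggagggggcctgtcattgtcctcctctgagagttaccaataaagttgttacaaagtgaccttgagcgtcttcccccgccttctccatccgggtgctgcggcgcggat

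The Sdha window held 3 NRF1 motifs, the Sdhd window held 1 NRF1 and 1 ETS motif, and the Sdhb window held none of the motifs searched. The windows of Atp5g1 and Atp5g3 each held 1 E-box, whereas that of Atp5g2, not printed here, held 1 NRF1 motif and no E-box. Over the 40 promoters of the 36 matched members, 12.5% held an E-box, against 6.02% of the 32851 promoters in the RefSeq table. The NRF1 motif stood in 17.5% of member promoters against 3.74% of all, and the ETS motif in 22.5% against 6.91%. A YY1 motif (AAGATGGC) stood in 5.0% against 1.56%. Of the 5 promoters with an E-box, 2 were overlapping windows of Atp5sl, described below as no ATP synthase subunit. Without that gene the share with an E-box was 7.89%, 3 of 38 promoters, and that with a YY1 motif 2.63%. These matches describe letters in the windows and are not evidence of binding in these cells.

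Of the 50 members, 42 passed the filter on low counts, or 84.0%, against 49.2% of all gene names. The 8 below it were Cox4i2, Cox6a2, Cox6b2, Cox7a1, Cox7b2, Cox8b, Cox8c and Atp5l2. Most of these are the tissue-restricted forms of complex IV subunits, such as Cox6a2, Cox7a1 and Cox8b of heart and skeletal muscle and Cox6b2, Cox7b2 and Cox8c of testis. Atp5l2 is annotated as a processed pseudogene in GENCODE M21. Per length, Atp5b, the catalytic beta subunit of ATP synthase, was the highest member, with a mean of 394 RPKM, reads scaled to transcript length and library size, over the 10 libraries. This value covers all Atp5b transcripts. Of the Atp5b counts 15.2% fell on the protein-coding transcript of 1916 bases, and the rest on transcripts of 343 to 1131 bases. The rank of the coding transcript alone was not tested. Cox4i1 of complex IV averaged 81.7 RPKM, Atp5g3 79.2 RPKM and Atp5a1, the alpha subunit, 47.7 RPKM. The order of Cox4i1 and Atp5g3 does not go beyond their spread, since Cox4i1 averaged 121 ± 166 RPKM in the primary c-Myc-high libraries alone (SD, n = 2). Cycs, the soluble electron carrier between complexes III and IV, averaged 0.34 RPKM.

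**Figure D1:**
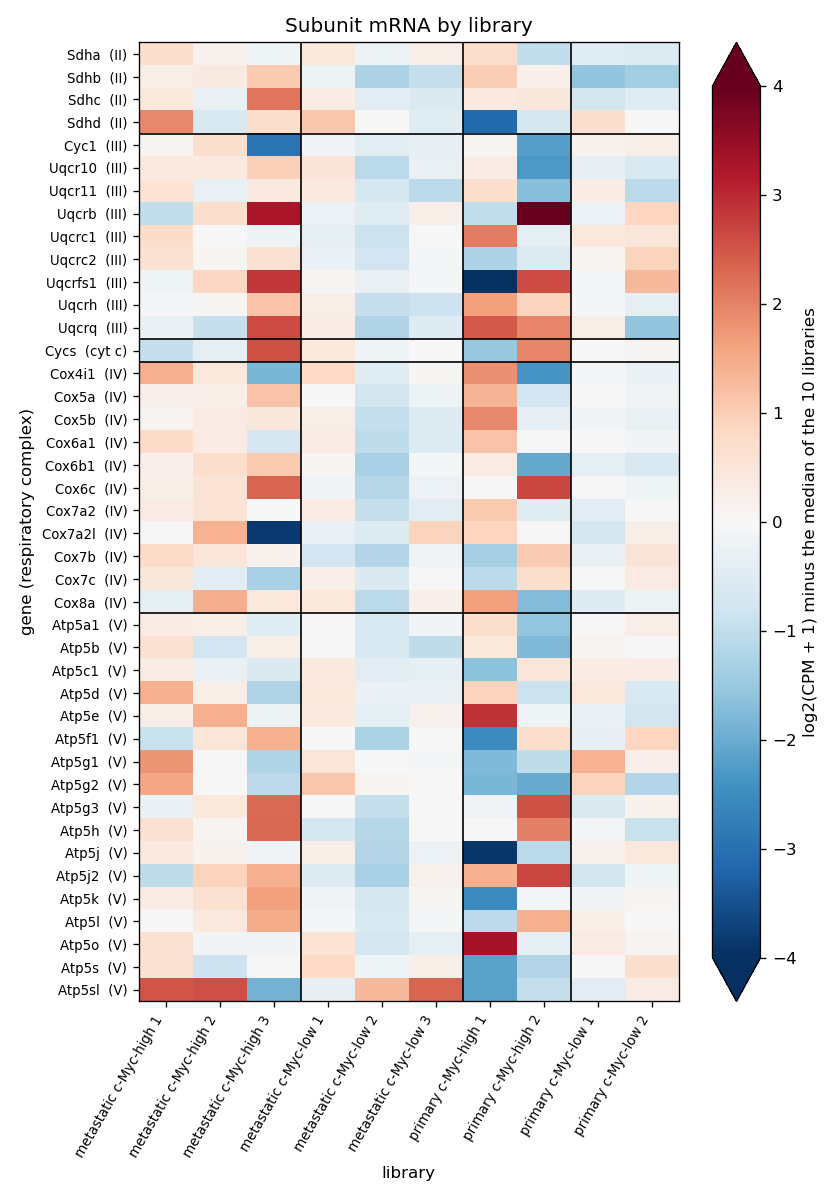
Levels of the 42 tested subunit genes (rows, grouped by complex) in the 10 libraries (columns), as log2(CPM + 1) minus the gene's median over the libraries. The strongest colours, in both directions, stand in the primary c-Myc-high libraries and in metastatic c-Myc-high replicate 3, and the c-Myc-low columns are pale.

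The first question was how subunit mRNA differed with c-Myc status. No member passed an adjusted p of 0.05 with edgeR's quasi-likelihood test in metastases, in primary tumours or over both sites, and neither did any other gene, the background being 0.0% in each. At an unadjusted p under 0.05 there were 0 members in metastases (background 4.8%), 5 in primary tumours, 4 of them higher in c-Myc-high (11.6%), and 9 over both sites, all higher in c-Myc-high (12.9%). DESeq2 called 0 members in metastases (background 0.512%), 1 in primary tumours (2.42%) and 3 over both sites (3.04%), whereas limma-voom called 0 in each (0.0%, 0.0119% and 0.00595%). The estimates leaned one way in metastases: 39 of the 42 members had a positive log2 fold change, with a median of 0.68, against 49.5% of all 16805 genes and a median of 0. In primary tumours 27 of 42 were positive, with a median of 0.63 against -0.12 for all genes. Part of this lean depends on the scaling between libraries. With plain library totals 31 of 42 members were positive in metastases, with a median of 0.23 against -0.43 for all genes. In primary tumours 22 of 42 were then positive, with a median of 0.10 against -0.71 for all genes. On the deposited RPKM the lean turned: with limma on log2(RPKM + 1), 16 of 42 members were positive in metastases, with a median of -0.12 against -0.36 for all genes, and 13 of 42 in primary tumours, with a median of -0.48 against -0.22. The direction of the members as a group, taken against 0, thus depends on the scale. Taken against all genes, the members' median in metastases was higher under every setting tried, by 0.245 to 1.14. In primary tumours this difference ran from -0.264 to 0.894. The deposited RPKM imply larger library sizes than the summed counts. These counts were between 8.09% (primary c-Myc-high replicate 2) and 27.0% (primary c-Myc-high replicate 1) of the implied size. The part of this in the RPKM results was not tested.

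**Figure D2:**
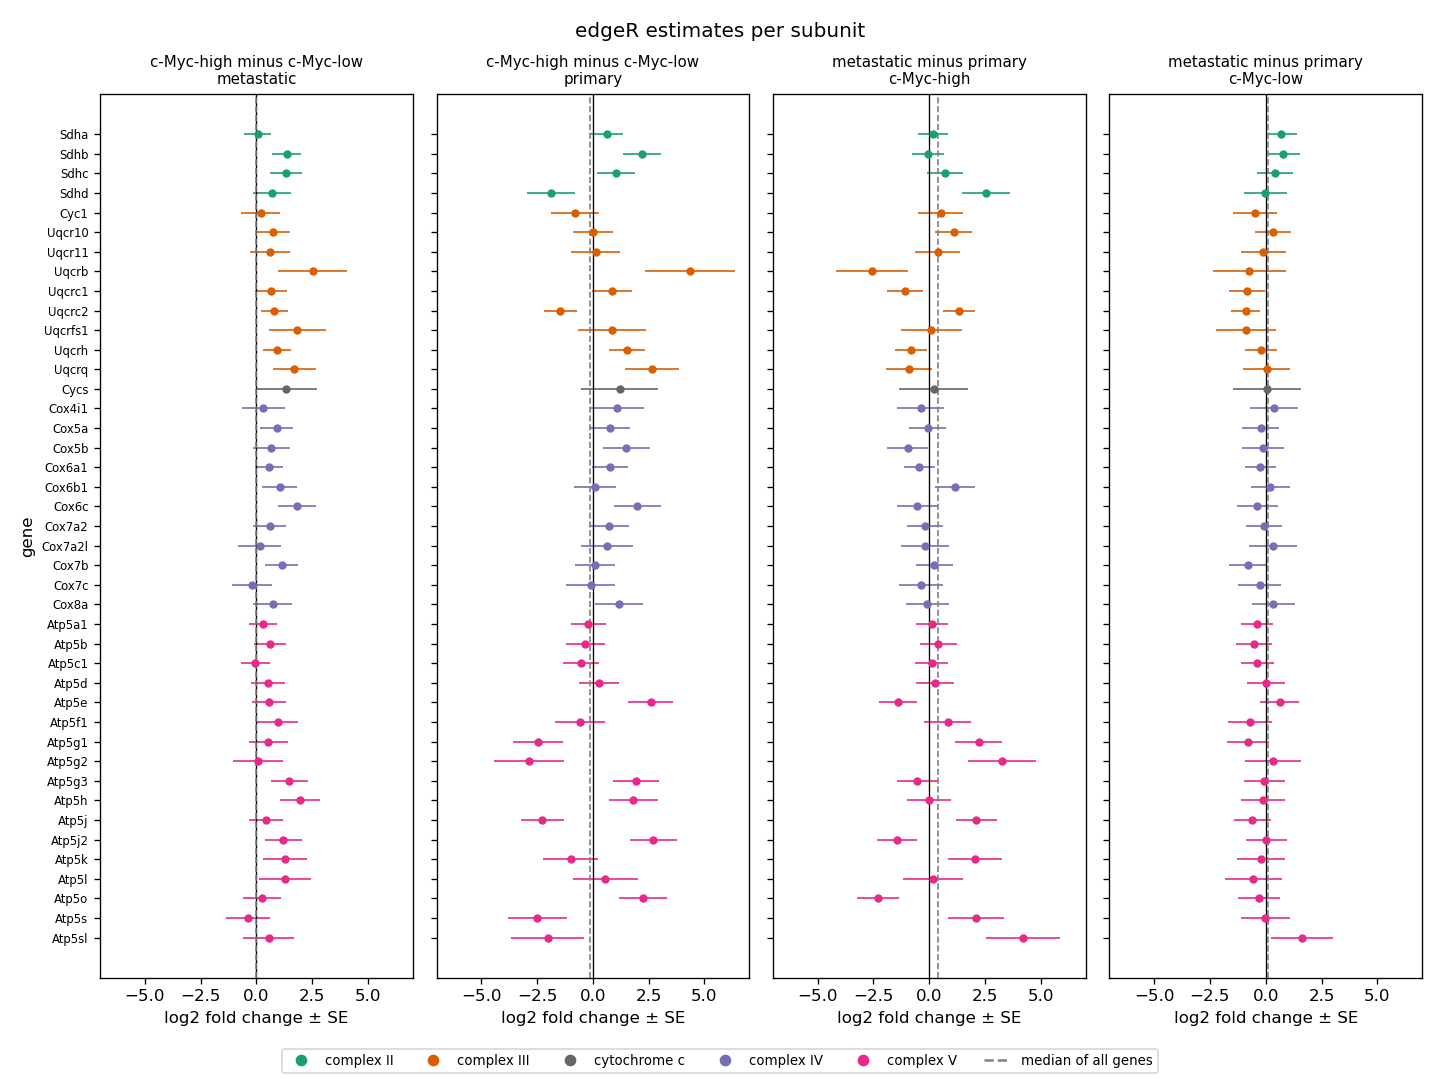
Log2 fold change with its standard error for each of the 42 tested subunit genes in 4 comparisons, from edgeR's fit of all 10 libraries, coloured by complex. Grey dashed lines mark the median of all tested genes. In metastases 39 of 42 points lie to the right of 0 at this scaling, against 16 of 42 on log2(RPKM + 1), and in the primary comparison complex V spreads to both sides.

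Summed over the members, the TMM-scaled level was 5277 ± 980 CPM in metastatic c-Myc-high and 3303 ± 929 CPM in metastatic c-Myc-low libraries (SD, n = 3 each). TMM is edgeR's scaling by trimmed means. It was 5288 ± 1600 CPM in primary c-Myc-high and 3920 ± 19.6 CPM in primary c-Myc-low libraries (SD, n = 2 each). The order in primary tumours turned with plain library totals, at 4035 ± 1764 CPM in c-Myc-high and 4430 ± 446 CPM in c-Myc-low libraries. In metastases the plain totals gave 4659 ± 321 CPM in c-Myc-high and 4179 ± 1286 CPM in c-Myc-low libraries, within the spread. The RPKM sum was 1026 ± 309 in c-Myc-high and 1084 ± 513 in c-Myc-low libraries of metastases, which turns the order there. In primary tumours complex III kept the c-Myc-high libraries above the c-Myc-low ones with TMM and with plain totals, but not in RPKM, with 714 ± 0.426 CPM in c-Myc-high and 397 ± 29.4 CPM in c-Myc-low libraries under TMM. Under plain totals the same sum was 533 ± 76.5 CPM in c-Myc-high and 448 ± 14.2 CPM in c-Myc-low libraries (SD, n = 2 each). In RPKM it was 291.5 and 61.3 in c-Myc-high libraries, against 148 and 67.8 in c-Myc-low libraries.

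**Figure D3:**
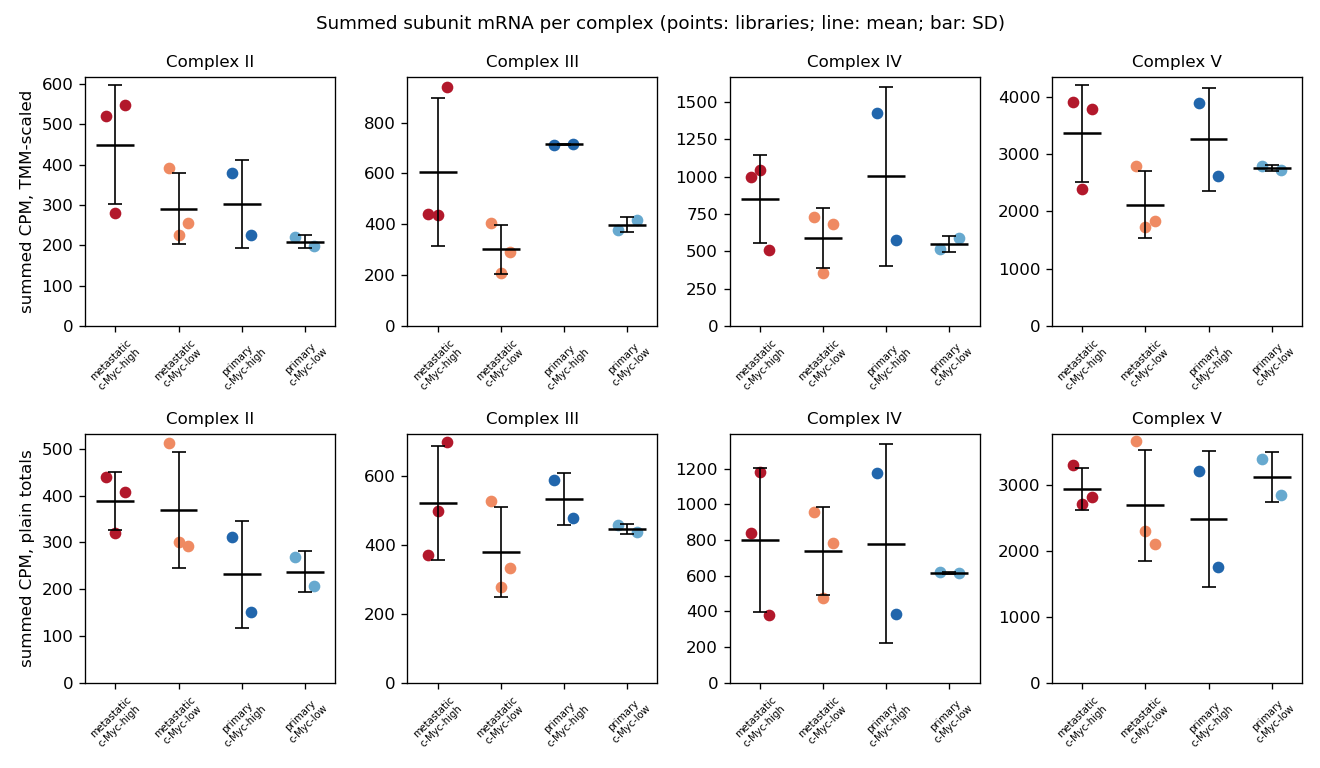
Summed level of the subunit genes of each complex by library in CPM, with TMM scaling (top) and with plain library totals (bottom). Points are libraries, lines group means and bars SD. The c-Myc-high means stand above the c-Myc-low means for all 4 complexes in the top row, and in the bottom row complexes II and V of primary tumours have the lower mean in c-Myc-high libraries.

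Complex II had the clearest single gene. Sdhb (chr4:140961203-140979193) codes the iron-sulphur subunit that passes electrons from the flavoprotein to ubiquinone. Sdhb stood at 42.5, 46.4 and 76.0 CPM in metastatic c-Myc-high libraries, against 31.5, 14.7 and 18.1 CPM in metastatic c-Myc-low libraries. In primary tumours it stood at 72.3 and 41.9 CPM in c-Myc-high libraries, against 11.6 and 13.2 CPM in c-Myc-low libraries. Every c-Myc-high library lay above every c-Myc-low one, which held for 1 of 42 members and, of all tested genes, for 0.399%; the opposite order held for 0 members and for 1.65% of all genes. With plain library totals Sdhb overlapped, since primary c-Myc-high replicate 2 had 28.1 CPM and metastatic c-Myc-low replicate 1 had 41.2 CPM. The edgeR log2 fold change over both sites was 1.78 ± 0.53 (SE), with an adjusted p of 0.305, and DESeq2 gave 1.94 with an adjusted p of 0.00554. DESeq2 was also the test that called Sdhb within primary tumours, with an adjusted p of 0.0450, where edgeR gave 2.21 ± 0.84 and an adjusted p of 0.419.

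The partners of Sdhb differed from it in pattern. Sdha, the flavoprotein that oxidises succinate, stood at 212, 153 and 119 CPM in metastatic c-Myc-high libraries, against 182, 117 and 162 CPM in metastatic c-Myc-low libraries. In primary tumours Sdha stood at 221 and 68.4 CPM in c-Myc-high libraries, against 96.5 and 92.1 CPM in c-Myc-low libraries. The groups overlapped at both sites. Sdhc, a membrane anchor that helps bind ubiquinone and haem, stood at 82.9, 50.7 and 276 CPM in metastatic c-Myc-high libraries, against 76.5, 45.8 and 41.5 CPM in metastatic c-Myc-low ones. In primary tumours Sdhc stood at 81.1 and 85.7 CPM in c-Myc-high libraries, against 37.2 and 44.6 CPM in c-Myc-low libraries, without overlap. Sdhd, the other anchor, went the opposite way in primary tumours, with 4.63 and 29.7 CPM in c-Myc-high libraries, against 75.4 and 47.1 CPM in c-Myc-low libraries. In metastases the Sdhd groups overlapped, at 183, 30.6 and 78.0 CPM in c-Myc-high and 101, 48.1 and 33.6 CPM in c-Myc-low libraries. Sdhd had one of the lowest p-values between sites in c-Myc-high cells, with a log2 fold change of 2.54 ± 1.07 and an edgeR adjusted p of 0.164.

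Complex III passes electrons from ubiquinol to cytochrome c. Cyc1, the haem-bearing cytochrome c1, stood at 59.0, 85.3 and 6.07 CPM in metastatic c-Myc-high libraries, against 49.9, 39.7 and 42.9 CPM in metastatic c-Myc-low libraries. In primary tumours Cyc1 stood at 58.8 and 11.04 CPM in c-Myc-high libraries, against 60.2 and 63.5 CPM in c-Myc-low libraries. The 2 low values belonged to the 2 shallowest libraries. Uqcrfs1, the Rieske iron-sulphur protein, ran the other way in the same libraries, at 33.4, 66.9 and 275 CPM in metastatic c-Myc-high libraries and 38.3, 30.6 and 36.6 CPM in metastatic c-Myc-low libraries. In primary tumours Uqcrfs1 stood at 0.958 and 233 CPM in c-Myc-high libraries, against 36.3 and 93.7 CPM in c-Myc-low libraries. Uqcrq, a small subunit near the ubiquinone site, had the third-lowest p over both sites, with 29.1, 17.9 and 219 CPM in metastatic c-Myc-high libraries and 43.1, 14.5 and 24.2 CPM in metastatic c-Myc-low libraries. In primary tumours Uqcrq stood at 196 and 138 CPM in c-Myc-high libraries, against 41.7 and 10.99 CPM in c-Myc-low libraries, without overlap. Its edgeR log2 fold change over both sites was 2.18 ± 0.77, with an adjusted p of 0.309.

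Uqcrb, another small subunit, had the largest estimate of the 42 members over both sites, 3.43 ± 1.27 with an edgeR adjusted p of 0.319 and a DESeq2 adjusted p of 0.0385. It stood at 0.797, 4.71 and 33.8 CPM in metastatic c-Myc-high libraries, against 2.03, 1.55 and 3.18 CPM in metastatic c-Myc-low libraries. In primary tumours Uqcrb stood at 0.815 and 151 CPM in c-Myc-high libraries, against 2.06 and 5.52 CPM in c-Myc-low libraries. The 2 high values were again those of the 2 shallowest libraries, and without them the estimate turned to -1.07. The core proteins Uqcrc2 and Uqcrc1 had the lowest and the third-lowest p of the members between sites in c-Myc-low cells, with Atp5sl between them, and none passed. Uqcrc2 stood at 43.1, 29.9 and 48.7 CPM in metastatic c-Myc-low libraries, against 55.5 and 96.6 CPM in primary c-Myc-low libraries, a log2 fold change of -0.90 ± 0.66 with an edgeR adjusted p of 0.686. In c-Myc-high cells Uqcrc2 stood at 77.4, 55.2 and 79.0 CPM in metastatic libraries, against 21.6 and 34.8 CPM in primary libraries. Its c-Myc difference was therefore positive in metastases and negative in primary tumours, and the test of that difference gave 2.24 ± 0.96 with an edgeR adjusted p of 0.725. Uqcrc1 stood at 24.6, 17.1 and 31.9 CPM in metastatic c-Myc-low libraries, against 43.1 and 45.6 CPM in primary c-Myc-low libraries, with an edgeR adjusted p of 0.856. Uqcr10 and Uqcrh, the most abundant complex III genes per length, averaged 31.5 and 28.2 RPKM over the 10 libraries. Uqcr10, a small subunit beside cytochrome c1, stood at 103, 104 and 152 CPM in metastatic c-Myc-high libraries, against 113, 36.4 and 63.6 CPM in metastatic c-Myc-low libraries. In primary tumours it stood at 96.8 and 15.1 CPM in primary c-Myc-high libraries, against 61.7 and 51.4 CPM in primary c-Myc-low libraries. Uqcrh, the hinge protein that aids the contact of cytochrome c1 with cytochrome c, stood at 54.0, 56.6 and 124 CPM in metastatic c-Myc-high libraries, against 64.8, 29.0 and 30.3 CPM in metastatic c-Myc-low libraries. In primary tumours Uqcrh stood at 173 and 102 CPM in primary c-Myc-high libraries, against 52.8 and 42.5 CPM in primary c-Myc-low libraries, without overlap, whereas in metastases its groups overlapped.

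Cycs counts were low. Cycs stood at 1.25, 2.27 and 24.0 CPM in metastatic c-Myc-high libraries, against 4.69, 2.76 and 3.20 CPM in metastatic c-Myc-low libraries. In primary tumours it stood at 0.493 and 15.6 CPM in c-Myc-high libraries, against 3.33 and 3.38 CPM in c-Myc-low libraries. The high value in each c-Myc-high group was that of its shallowest library.

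Complex IV, cytochrome c oxidase, hands the electrons to oxygen. Of its 11 tested subunit genes, 10 had positive estimates for c-Myc in metastases and 10 in primary tumours, with medians of 0.67 and 0.76, but on log2(RPKM + 1) the counts were 4 and 2 of 11, with medians of -0.13 and -0.15. None was called by edgeR or DESeq2. Cox6c, a small subunit without tissue forms, stood at 28.1, 35.4 and 124 CPM in metastatic c-Myc-high libraries, against 22.0, 10.3 and 20.1 CPM in metastatic c-Myc-low libraries. The groups did not overlap, though they did with plain library totals, and edgeR gave a log2 fold change of 1.83 ± 0.86 with an unadjusted p of 0.0547 and an adjusted p of 1. In primary tumours Cox6c stood at 23.4 and 158 CPM in c-Myc-high libraries, against 24.2 and 21.1 CPM in c-Myc-low libraries. Cox4i1, the widely used form of the largest nuclear subunit, stood at 453, 222 and 46.1 CPM in metastatic c-Myc-high libraries, against 289, 119 and 172 CPM in metastatic c-Myc-low libraries. In primary tumours Cox4i1 stood at 599 and 31.6 CPM in c-Myc-high libraries, against 162 and 137 CPM in c-Myc-low libraries, so that 1 group held both its highest and its lowest value.

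Complex IV has paired forms of some subunits, 1 of general and 1 of restricted tissues. Cox4i2, known for induction by low oxygen, did not exceed 2.87 CPM, and Cox6a2 reached 4.03 CPM in metastatic c-Myc-high replicate 2 and at most 0.341 CPM elsewhere. Their general counterparts Cox4i1 and Cox6a1 averaged 81.7 and 35.2 RPKM. Cox6a1 stood at 162, 119.8 and 58.9 CPM in metastatic c-Myc-high libraries, against 118, 46.7 and 64.2 CPM in metastatic c-Myc-low libraries, with overlap. In primary tumours Cox6a1 stood at 211 and 96.0 CPM in primary c-Myc-high libraries, against 93.4 and 86.8 CPM in primary c-Myc-low libraries, without overlap, though the groups overlapped with plain library totals. Cox7a1 stood at 13.7 CPM in metastatic c-Myc-high replicate 3, where it held 36.6% of the counts of the pair Cox7a1 and Cox7a2, and at most 1.69 CPM and 5.57% of the pair in the other libraries. Cox7a2, its general form, stood at 29.4, 34.3 and 23.7 CPM in metastatic c-Myc-high libraries, against 28.7, 11.6 and 17.4 CPM in metastatic c-Myc-low libraries. In primary tumours Cox7a2 stood at 49.3 and 16.6 CPM in primary c-Myc-high libraries, against 17.3 and 23.0 CPM in primary c-Myc-low libraries, and the groups overlapped at both sites. Cox7a2l, which joins complexes III and IV into supercomplexes, stood at 137, 355 and 8.66 CPM in metastatic c-Myc-high libraries, against 109, 92.6 and 251 CPM in metastatic c-Myc-low libraries. In primary tumours Cox7a2l stood at 245 and 135 CPM in c-Myc-high libraries, against 83.5 and 161 CPM in c-Myc-low libraries. Cox6b1 stood at 34.4, 50.1 and 63.7 CPM in metastatic c-Myc-high libraries, against 30.8, 11.6 and 29.3 CPM in metastatic c-Myc-low libraries. In primary tumours it stood at 37.3 and 6.51 CPM in primary c-Myc-high libraries, against 22.8 and 19.2 CPM in primary c-Myc-low libraries. Its groups overlapped in primary tumours and not in metastases, as did those of Cox7b, and with plain library totals both overlapped in metastases too. Cox7b stood at 60.2, 48.9 and 38.4 CPM in metastatic c-Myc-high libraries, against 20.2, 15.1 and 31.9 CPM in metastatic c-Myc-low libraries. In primary tumours Cox7b stood at 13.5 and 71.9 CPM in primary c-Myc-high libraries, against 28.2 and 50.8 CPM in primary c-Myc-low libraries. Cox8a overlapped at both sites. It stood at 30.4, 111 and 53.5 CPM in metastatic c-Myc-high libraries, against 53.8, 18.2 and 45.8 CPM in metastatic c-Myc-low libraries. In primary tumours Cox8a stood at 126 and 11.2 CPM in primary c-Myc-high libraries, against 27.5 and 34.7 CPM in primary c-Myc-low libraries. The most that their restricted counterparts reached was 2.03 CPM for Cox6b2, 0.0414 CPM for Cox7b2, 1.32 CPM for Cox8b and 0.11 CPM for Cox8c.

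**Figure D4:**
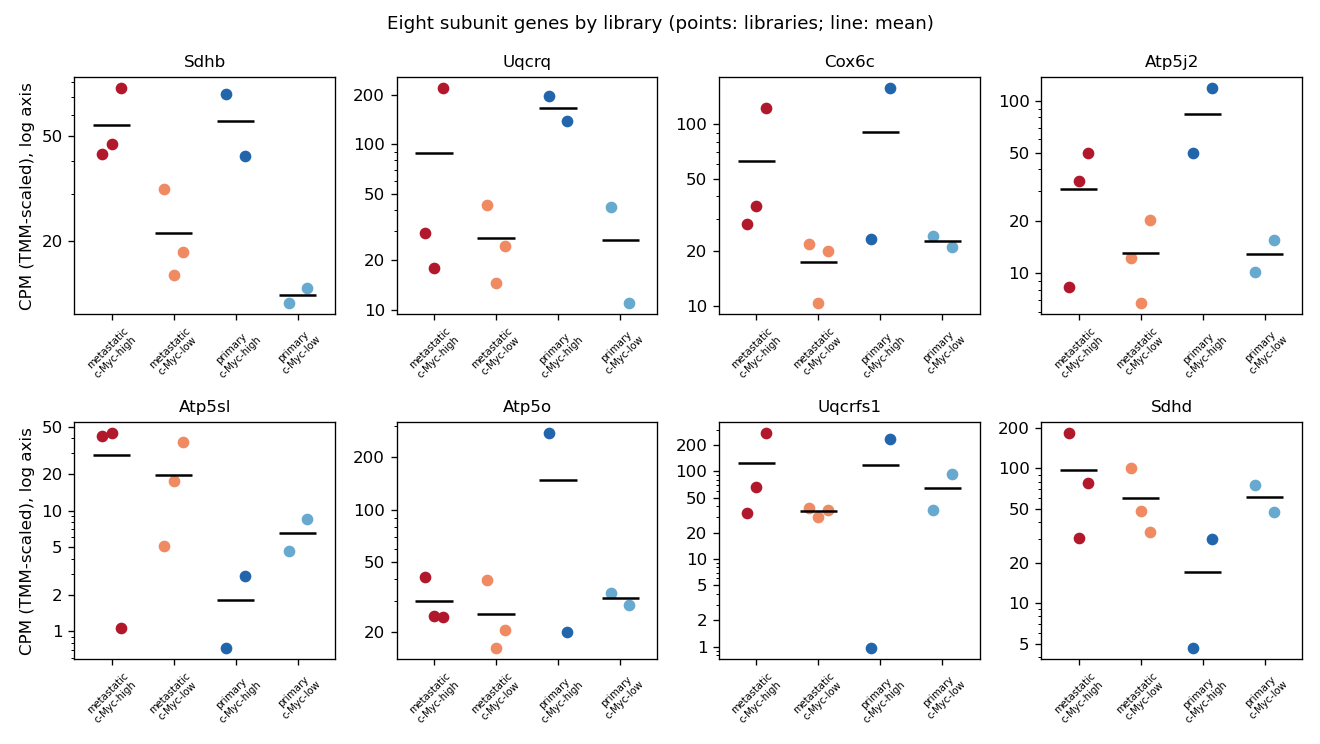
Levels of 8 subunit genes by library in CPM on a log axis, with group means as lines. Sdhb separates all c-Myc-high from all c-Myc-low libraries at this scaling, whereas Uqcrfs1 in the primary c-Myc-high group spans 0.958 to 233 CPM.

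Complex V makes ATP. Of its 17 tested members, 15 had positive c-Myc estimates in metastases, where 49.5% of all genes did, and 7 in primary tumours, where 44.7% of all genes did. Without Atp5sl the counts were 14 and 7 of 16, and on log2(RPKM + 1) they were 6 and 5 of 17. Atp5e, the epsilon subunit of the rotor, stood at 382 and 45.1 CPM in primary c-Myc-high libraries, against 40.7 and 30.0 CPM in primary c-Myc-low libraries. The edgeR log2 fold change was 2.60 ± 1.003 with an adjusted p of 0.419. In metastases Atp5e overlapped, at 61.0, 138 and 43.5 CPM in metastatic c-Myc-high libraries, against 66.8, 39.5 and 56.5 CPM in metastatic c-Myc-low libraries. Atp5j2, the f subunit of the membrane part, stood at 49.8 and 119 CPM in primary c-Myc-high libraries, against 10.2 and 15.6 CPM in primary c-Myc-low libraries. In metastases Atp5j2 stood at 8.36, 34.1 and 49.6 CPM in c-Myc-high libraries, against 12.3, 6.71 and 20.5 CPM in c-Myc-low libraries. Over both sites the Atp5j2 estimate was 1.96 ± 0.67 with an edgeR adjusted p of 0.307 and a DESeq2 adjusted p of 0.0388. Atp5h, subunit d of the stalk, had the lowest p of the members in metastases, at 24.0, 16.5 and 79.3 CPM in c-Myc-high libraries, against 9.04, 6.34 and 15.6 CPM in c-Myc-low libraries. The 2 groups did not overlap, also with plain library totals, and the edgeR estimate was 1.94 ± 0.90 with an adjusted p of 1.

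Other stalk and rotor genes ran the opposite way in primary tumours. Atp5j, coupling factor 6 of the stalk, stood at 4.87 and 40.7 CPM in primary c-Myc-high libraries, against 97.2 and 117 CPM in primary c-Myc-low libraries. In metastases Atp5j stood at 114, 95.2 and 77.8 CPM in c-Myc-high libraries, against 102, 37.5 and 72.6 CPM in c-Myc-low libraries, and the test of the difference between sites gave 2.70 ± 1.22 with an edgeR adjusted p of 0.725. The c subunit of the rotor ring is made from Atp5g1, Atp5g2 and Atp5g3, whose mature proteins are identical. Atp5g1 stood at 5.29 and 9.48 CPM in primary c-Myc-high libraries, against 54.2 and 23.7 CPM in primary c-Myc-low libraries. Atp5g3 stood at 227 and 1459 CPM in primary c-Myc-high libraries, against 168 and 273 CPM in primary c-Myc-low libraries, and so overlapped where Atp5g1 did not. Atp5g2 was the lowest of the 3, at 16.5, 4.99 and 1.85 CPM in metastatic c-Myc-high libraries, against 11.9, 5.44 and 4.89 CPM in metastatic c-Myc-low libraries, and at 0.681 and 0.476 CPM in primary c-Myc-high libraries, against 10.04 and 1.62 CPM in primary c-Myc-low libraries. It had 4 rounded counts over both primary c-Myc-high libraries, and its pooled level in metastatic c-Myc-high libraries was 11.1 times higher (exact 95% interval 4.20 to 41.7, counting error only). Without metastatic c-Myc-high replicate 1, which held most of these counts, it was 5.53 times higher (1.94 to 21.7). In metastases Atp5g1 stood at 71.4, 20.02 and 8.26 CPM in c-Myc-high libraries, against 28.6, 20.5 and 19.3 CPM in c-Myc-low libraries. Atp5g3 in metastases stood at 209, 338 and 1199 CPM in c-Myc-high libraries, against 246, 129 and 253 CPM in c-Myc-low libraries.

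Atp5b (chr10:128083273-128090391) stood at 2232, 869 and 1748 CPM in metastatic c-Myc-high libraries, against 1500.4, 969.5 and 726 CPM in metastatic c-Myc-low libraries. In primary tumours Atp5b stood at 1999 and 439.6 CPM in c-Myc-high libraries, against 1600.2 and 1464 CPM in c-Myc-low libraries. The groups overlapped at both sites. Little of this signal fell on the protein-coding transcript, which held 15.2% of the Atp5b counts, and the rest fell on short processed transcripts and retained introns. The coding transcript alone stood at 449.5, 66.0 and 168 CPM in metastatic c-Myc-high libraries, against 315, 175 and 15.1 CPM in metastatic c-Myc-low libraries. In primary tumours it stood at 146 and 40.2 CPM in c-Myc-high libraries, against 365 and 47.0 CPM in c-Myc-low libraries, so the library order differed from that of the gene sum.

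**Figure D5:**
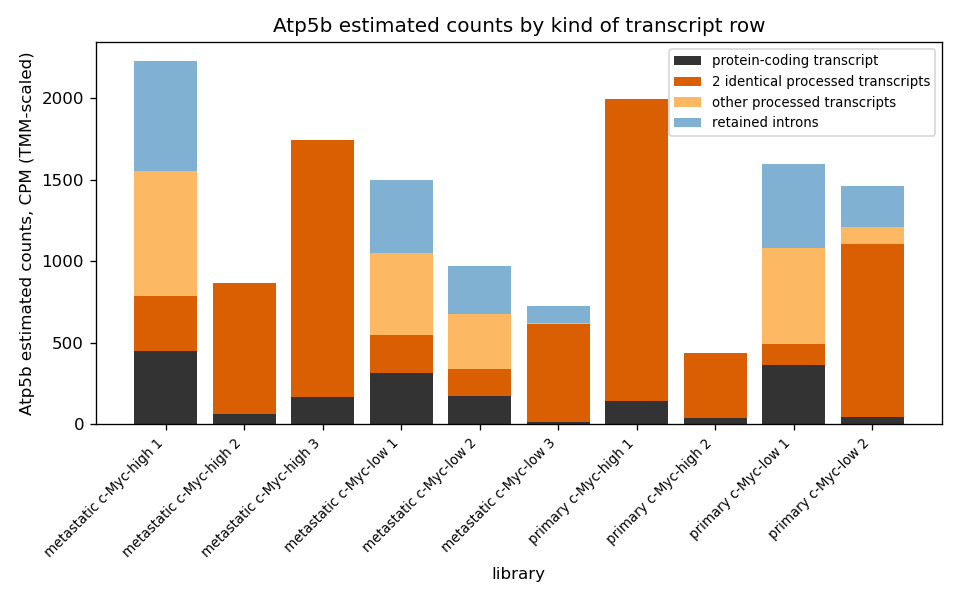
Estimated counts of Atp5b in each library in CPM, stacked by kind of transcript row. The pair of processed transcripts with identical values in every library (orange) made up 1852 of 1999 CPM in primary c-Myc-high replicate 1, against 128 of 1600.2 CPM in primary c-Myc-low replicate 1.

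The other question was how the subunits differed between metastatic and primary cells. With edgeR 0 members were called in c-Myc-high cells (background 3.97%), 0 in c-Myc-low cells (2.11%) and 0 over both classes (13.8%). Unadjusted p-values under 0.05 were found for 4 members in c-Myc-high cells, 3 of them higher in metastases (26.2%), for 0 in c-Myc-low cells (15.1%) and for 1 over both classes (30.4%). DESeq2 called 1 member in c-Myc-high cells (19.7%), 0 in c-Myc-low cells (10.2%) and 1 over both classes (23.8%), and limma-voom 0 in each (0.994%, 23.5% and 11.3%). The members' median log2 fold change was 0.12 in c-Myc-high cells against 0.38 for all genes, and -0.13 in c-Myc-low cells against 0.10. With metastatic c-Myc-high replicates 1 and 3, the libraries rich in salivary gland markers, left out, that group has 1 library. No gene was then called in c-Myc-high cells (0.0%), so the member count of 0 cannot be read there, and over both classes 0 members were called (12.5%). These comparisons share libraries with those by c-Myc status.

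The member called by DESeq2 was Atp5sl (chr7:25619414-25625551) in both cases. Atp5sl is named Dmac2 in GENCODE M21, after a role in assembling the membrane arm of complex I, and is not a subunit of ATP synthase in spite of its older name. It stood at 42.0, 44.2 and 1.05 CPM in metastatic c-Myc-high libraries, against 0.723 and 2.88 CPM in primary c-Myc-high libraries. In c-Myc-low cells it stood at 5.06, 17.5 and 37.3 CPM in metastatic libraries, against 4.62 and 8.47 CPM in primary libraries. The groups overlapped in both classes, and edgeR gave 4.21 ± 1.66 with an adjusted p of 0.144 in c-Myc-high cells and 2.92 ± 1.08 with an adjusted p of 0.0916 over both classes. The DESeq2 values were 4.0 with an adjusted p of 0.0258 and 2.81 with an adjusted p of 0.0171. Atp5o, the OSCP protein that links the stalk to the catalytic head, stood at 41.3, 24.8 and 24.3 CPM in metastatic c-Myc-high libraries, against 275 and 20.1 CPM in primary c-Myc-high libraries. Its estimate of -2.29 ± 0.93 (edgeR adjusted p of 0.152) rested on the 1 high library and was 0.36 without it. In c-Myc-low cells Atp5o stood at 39.6, 16.1 and 20.4 CPM in metastatic libraries, against 33.6 and 28.7 CPM in primary libraries.

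Leaving out the 2 shallowest libraries, both c-Myc-high, brought calls that the full set did not give, with 1 primary c-Myc-high library then assumed to vary like the other groups. Between sites in c-Myc-high cells 5 members passed (background 16.0%): Atp5j, Atp5k, Atp5sl and Uqcrfs1 were higher and Atp5o lower in metastatic cells. The log2 fold changes were 4.49 for Atp5j, 5.70 for Uqcrfs1 and -3.00 for Atp5o, with edgeR adjusted p-values of 0.0196, 0.0182 and 0.0273. Over both classes 5 members passed (22.8%), Atp5j, Atp5sl and Uqcrfs1 higher and Atp5o and Uqcrc1 lower in metastatic cells. By c-Myc status in primary tumours 4 passed (6.17%), Atp5e and Atp5o higher and Atp5j and Uqcrfs1 lower in c-Myc-high cells. Over both sites Atp5e passed (1.46%), higher in c-Myc-high cells by 2.11 on the log2 scale with an edgeR adjusted p of 0.0479. In this subset primary c-Myc-high cells are represented by replicate 1, where Uqcrfs1 stood at 0.958 CPM, against 233 CPM in the replicate left out. Of the Atp5o counts in replicate 1, 5.81% fell on protein-coding rows.

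Separation of the groups was also counted without a model. In metastases 9 members had all c-Myc-high libraries above all c-Myc-low ones (background 3.33%) and 0 had the reverse (7.74%). The 9 were Atp5h, Atp5k, Atp5l, Cox5a, Cox6b1, Cox6c, Cox7b, Sdhb and Uqcrc2, and with plain library totals Atp5h and Uqcrc2 were the 2 that did so, against 1.23% of all genes, while 14.0% of all genes had the reverse. In primary tumours 8 members were separated with c-Myc-high above (11.3%) and 8 with it below (30.2%). With plain totals these counts were 5 (6.09% of all genes) and 11 (40.2%), and Atp5e, Atp5h and Cox6a1 were no longer separated. Between sites 7 members were separated with metastatic above in c-Myc-high cells (17.4%) and 1, Atp5j2, with it below (10.5%). In c-Myc-low cells 2, Sdha and Sdhb, were separated with metastatic above (25.2%) and 5 with it below (20.1%). With plain totals the last 2 counts were 4 (28.2% of all genes) and 3 (16.1%).

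The c-Myc difference itself was compared between sites, with 0 members called by edgeR (background 0.0%) and 2 at an unadjusted p under 0.05 (6.84%). DESeq2 called 0 (0.506%) and limma-voom 0 (0.0%). The members' median difference was 0.20, as was that of all genes.

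The spread within groups was unequal. The median SD of log2 CPM over members was 1.57 in primary c-Myc-high libraries, against 0.226 in primary c-Myc-low libraries, where all genes had 1.2 and 0.415. It was 0.857 in metastatic c-Myc-high libraries, against 0.551 in metastatic c-Myc-low libraries, where all genes had 1.27 and 0.557. A c-Myc-high library held the highest value for 39 of 42 members, or 92.9% against 68.8% of all genes, and the lowest for 28, or 66.7% against 85.7%. Both of the shallowest libraries stood above all 8 others for Atp5g3, Atp5h, Atp5l, Cox6c, Cycs, Sdhc, Uqcrb and Uqcrfs1, 19.0% of members against 5.83% of all genes. Both stood below all others for Atp5d, Cox4i1 and Cyc1, 7.14% of members against 12.3% of all genes. Over the 42 members the level relative to a gene's median was related to transcript GC content with a Pearson r that ran from -0.51 in primary c-Myc-low replicate 2 to 0.46 in primary c-Myc-high replicate 1. Over 16666 genes r was -0.098 and 0.103 in these 2 libraries, and it ran from -0.143 to 0.122 over the 10 libraries. The members share each library and its depth, and the part of GC content in the results was not tested.

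Neighbouring pathways were read in the same fit. Of 37 tested complex I subunit genes, 0 were called in any of the 7 comparisons. Of all genes, 3.97% were called between sites in c-Myc-high cells, 2.11% in c-Myc-low cells and 13.8% over both classes. In the comparisons that involve c-Myc status the share was 0.0%, so the count of 0 cannot be read there. In metastases 36 of 37 had positive c-Myc estimates, where 49.5% of all genes did, against 15 of 37 on log2(RPKM + 1). Among 31 tested assembly factors of complexes II to V, the single gene called was Atpaf2, higher in metastatic cells, a chaperone for the alpha subunit of complex V. Atpaf2 stood at 52.7, 24.2 and 3.62 CPM in metastatic c-Myc-high libraries, against 0.0525 and 0.138 CPM in primary c-Myc-high libraries. These are 0 rounded counts, so that the metastatic level was at least 53.3-fold higher with a floor of 3 counts over the group. The edgeR adjusted p was 0.0362, and it was above 0.05 under 15 of the alternatives. In c-Myc-low cells it stood at 10.1, 10.8 and 12.2 CPM in metastatic libraries, against 19.9 and 7.93 CPM in primary libraries. Ppargc1a codes the coactivator PGC-1 alpha that drives mitochondrial biogenesis. Over both classes it was higher in metastatic libraries by 4.63 ± 1.04 on the log2 scale (edgeR adjusted p of 0.0138). It stood at 199.98, 18.04 and 622 CPM in metastatic c-Myc-high libraries, against 25.8 and 6.62 CPM in primary c-Myc-high libraries. In c-Myc-low cells it stood at 199, 119 and 43.7 CPM in metastatic libraries, against 1.27 and 5.45 CPM in primary libraries. Metastatic c-Myc-high replicate 2 fell inside the primary range, and the subunit genes above gave no call in the same comparison. Summed melanocyte markers lay between 3310.5 and 22678 CPM in the metastatic libraries and between 666 and 4167 CPM in the primary ones. The part of cell composition in the Ppargc1a values was not tested. Among the genes of these lists Coq7 had the lowest p by c-Myc status over both sites. Coq7, a hydroxylase of coenzyme Q synthesis, stood at 3.90, 5.63 and 325 CPM in metastatic c-Myc-high libraries, against 5.99, 3.01 and 8.80 CPM in metastatic c-Myc-low libraries. In primary tumours Coq7 stood at 127 and 210.1 CPM in primary c-Myc-high libraries, against 1.86 and 6.42 CPM in primary c-Myc-low libraries, and over both sites edgeR gave 4.81 ± 1.23 with an adjusted p of 0.305. The 3 highest Coq7 values included both of the shallowest libraries. Ndufa2, a complex I subunit, gave 2.92 ± 0.82 with an edgeR adjusted p of 0.305 over both sites. Among 19 tested carriers and cofactor genes of the inner membrane 0 were called, against the shares of all genes given for complex I.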

How the data were processed

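The mouse RNA-seq libraries were 10, in 4 groups taken from the labels. The authors deposited, per the file headers, estimated counts and RPKM for 92214 transcript rows with gene names. Bowtie2, limma and the genome build mm10 are named per the submitters' processing notes; the quantifier is not given in the sources used here. The same holds for strand setting and annotation release, so genes with near-identical copies or antisense partners are uncertain. RNA was amplified, per the labels' protocols, which mention no molecular identifiers, so intervals and floors cover counting error only.

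Counts were summed by gene name and rounded. After edgeR's expression filter 16805 genes were left. They were scaled by TMM and fitted in edgeR 4.0.16 (R 4.3.3) with robust quasi-likelihood on all 10 libraries, 1 mean per group, and p-values were adjusted by Benjamini-Hochberg over all genes at 0.05. The standard error given with an edgeR estimate was derived from its test, as the absolute log2 fold change divided by the square root of the F statistic. The common biological coefficient of variation was 0.876. The deposited RPKM were used for levels compared between genes. DESeq2 1.42.0, limma 3.58.1 (voom, and trend on log2(RPKM + 1) and log2(RPKM + 0.1)), other scalings, no filter, other row choices, left-out libraries and a replicate block were alternatives. The edgeR script was tested on simulated data.

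Genes given by library were those called, the 2 highest per complex by RPKM, the 3 lowest p-values per comparison, the paralogue sets, the Sdh genes, Cyc1 and Cycs, and from the pathway lists every called gene with examples of the lowest p-values. The members and lists were chosen with earlier results of these data known. Promoter sequences are from RefSeq (GRCm38.p6), and gene positions are from GENCODE M21 on GRCm38.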

Additional observations from a re-analysis of the deposited data

How the results depend on the processing

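With edgeR on all libraries 0 subunit genes were called in each of the 7 comparisons, and 147 of 158 counts, 1 per comparison and alternative, were 0 too. By c-Myc status, and for the c-Myc difference between sites, edgeR on all libraries called no gene at all (0.0%). The member counts of 0 there cannot set the subunits apart from other genes. These comparisons are also among the 5 given below with counts of 0 to 0. DESeq2 called 1 member between sites in c-Myc-high cells, 1 between sites over both classes, 1 by c-Myc status in primary tumours and 3 by c-Myc status over both sites. The 8 deepest libraries gave 5, 5, 4 and 1 in the same order. Leaving out 1 library gave 0 to 3 between sites in c-Myc-high cells, 3 without primary c-Myc-high replicate 2 (6.69% of all genes). It gave 0 to 2 between sites over both classes, 2 without primary c-Myc-high replicate 2 (12.8%) and 1 without metastatic c-Myc-high replicate 3 (16.7%), and 0 to 0 in the other 5 comparisons.

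Of the 35 fold changes examined, 24 values reversed, 32 lost and 25 gained the threshold, and 708 kept both; the cause was not tested. With 1 library left out, Atp5o between sites in c-Myc-high cells lay between -3.11 and 0.36, and by c-Myc status in primary tumours between -0.47 and 3.05, the reversals being without primary c-Myc-high replicate 1. Uqcrb by c-Myc status over both sites was -1.07 in the 8 deepest libraries. Uqcrfs1 between sites in c-Myc-high cells, 0.10 with all libraries, was -0.0811 with RLE factors, -0.0843 with DESeq2, -0.0154 without the filter and -0.91 without the salivary-rich libraries, an alternative chosen after seeing the data. With 1 library left out it lay between -1.22 and 7.08, being negative in 4 fits: -1.22 without metastatic c-Myc-high replicate 3, -1.04 without primary c-Myc-high replicate 1, -0.0559 without metastatic c-Myc-low replicate 1 and -0.0584 without replicate 2. Uqcrfs1 between sites over both classes, -0.39 with all libraries, was 1.76 with limma-voom, 0.61 and 1.08 with log2(RPKM + 1) and log2(RPKM + 0.1), and 2.36 in the 8 deepest libraries. With 1 library left out it lay between -1.05 and 3.06, positive without primary c-Myc-high replicate 2 or primary c-Myc-low replicate 2 (0.0396). Uqcrfs1 by c-Myc status in primary tumours, 0.84 with all libraries, was -4.03 with limma-voom, -1.41 and -2.42 on the RPKM scales, and -6.15 in the 8 deepest libraries. With 1 library left out it lay between -6.15, without primary c-Myc-high replicate 2, and 1.98. Of 68 alternative values of the summed levels, 24 moved by more than 1 SD.

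Same-numbered libraries had correlations of their deviations between -0.305 and 0.141. Differently numbered ones ran from -0.487 to 0.556, the highest for metastatic c-Myc-high replicate 2 with metastatic c-Myc-low replicate 3. Between primary libraries the values mirrored each other (0.0775 and -0.0775) because each group holds 2, so they cannot show a pairing. The main fit therefore used no pairing, the replicate block went by the numbers, and a pairing under other numbers was not tested. With the replicate block 0 members were called in every comparison, 20 of 42 members had a positive c-Myc estimate in primary tumours, and Uqcrfs1 was -0.00872 between sites in c-Myc-high cells and -1.73 by c-Myc status in primary tumours. The counts of 0 under the block are given without the share of all genes, so they cannot set members apart from other genes. Groups of 2 and 3, a biological coefficient of variation of 0.876 and 2 shallow c-Myc-high libraries bear on the precision of all tests.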

Other observations

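Many transcript rows of one gene carried the same values in all 10 libraries. Of 71668 rows above 0, 10866 (15.2%) had such a partner, and so did 40 of 148 rows above 0 of the subunit genes (27.0%), in 16 genes. The repeats held 12.5% to 29.2% of the members' counts per library, against 6.74% to 10.1% of all counts. Counting each such set once, an alternative chosen after seeing the data, left 0 members called in every comparison. Of 16715 genes, 688 were then called between sites in c-Myc-high cells, 380 in c-Myc-low cells and 2315 over both classes. No gene was called in the comparisons that involve c-Myc status, so the count of 0 cannot be read there. The share of the members' counts on protein-coding rows was 47.4% to 77.3% per library.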
